A study of Homo sapiens with 2 samples.

Results

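NOTCH pathway genes, 10 in number, were examined in the B-cell precursor leukemia (BCP-ALL) cell lines REH and 697. They were taken as a fixed list of symbols, matched to Ensembl gene IDs, and are the receptors NOTCH1, NOTCH2, NOTCH3 and NOTCH4, the ligands DLL1, JAG1 and JAG2, and the targets HES1, HEY1 and DTX1. All 10 were found among the 57773 genes of the files, and 8 of them reached 10 reads in at least 1 library. RNA of untreated REH and 697 cells, grown as suspension cultures in serum-supplemented RPMI medium, had been sequenced with 1 library per line. The REH line is ETV6/RUNX1-positive and has a deletion of the other ETV6 allele, and 697 is a line without that fusion. Each line is 1 immortalized culture from 1 leukemia, and with 1 library each the spread between cultures is unknown, so no p-value is given and every difference is one between these libraries.

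NOTCH receptors are single-pass membrane proteins that are activated by DLL or JAG ligands on a neighbouring cell. Ligand binding exposes the receptor to ADAM proteases and then to gamma-secretase, and the released intracellular part enters the nucleus, where it joins the DNA-binding protein RBPJ and a Mastermind (MAML) coactivator at target genes such as HES1, HEY1 and DTX1. In lymphoid development NOTCH1 directs progenitors to the T-cell lineage at the expense of B cells and is a frequent oncogene in T-cell leukemia, whereas NOTCH2 is required for marginal zone B cells.

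The libraries held 45188375 gene reads in REH and 41097497 in 697, and CPM (reads relative to library size) were computed from totals scaled by the trimmed mean of M-values (TMM). A count of 0 allows up to 3 reads, which equal 0.0597 CPM for REH and 0.0812 CPM for 697. Of 8 B-lineage markers, 7 in REH and 8 in 697 had at least 10 reads, VPREB1 being the exception with 3 reads in REH. Of 5 matched T-lineage markers, CD3E alone reached 10 reads (45 in REH, 0 in 697), and the summed level of the list was 1.03 CPM in REH and 0.0271 CPM in 697. Among 5 myeloid markers, MPO had 12643 reads in REH and 12 in 697, while CD33, CD14, LYZ and CSF1R had at most 61 in either library. Of 4 matched endothelial markers, KDR (80 reads) in 697 and VWF (12 reads) in REH reached 10 reads. COL1A1 and PDGFRB were counted in both lines, at 477 and 1197 reads in REH and at 387 and 2005 reads in 697, whereas the other stromal markers COL1A2, COL3A1 and LUM had 0. Whether these markers have a part in the NOTCH values was not tested.

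The lines differed in which NOTCH receptor was most abundant. REH contained mainly NOTCH1 RNA, and 697 contained NOTCH2 first, then NOTCH1 and NOTCH3. DLL1, JAG1 and JAG2 were low in both lines, DTX1 was the most abundant of the 10 genes per kb of exon in both, and HES1 and HEY1 had at most 2 reads in either.

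NOTCH1 (chromosome 9, 136494433 to 136546048, GRCh38), the receptor of T-lineage commitment, had 9481 reads in REH and 1919 in 697. This corresponds to 189 CPM and 51.9 CPM, a 3.63-fold higher level in REH (log2 ratio of REH over 697 1.86, 95% counting interval 1.79 to 1.93). The interval was derived from the REH share of the reads by the exact Clopper-Pearson method, and like all intervals here it covers counting error alone. The ratio lay just under 2, the size from which a gene is called higher in either line here, and was 2.17 when library totals were used without TMM factors.

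NOTCH2 (chromosome 1, 119911553 to 120100779) showed the opposite order. It had 2544 reads or 50.6 CPM in REH and 4690 reads or 127 CPM in 697, a level 2.51-fold higher in 697 (ratio on the log2 scale -1.33, interval -1.40 to -1.26). Copies of its first exons lie in the NOTCH2NL genes of chromosome 1, and reads matching several copies were not counted, so the NOTCH2 counts are uncertain. Multimapping reads took 10.8% of all reads in REH and 15.4% in 697. Within a library, the ratio of NOTCH1 to NOTCH2 does not depend on library scaling. Per kb of exon, NOTCH1 was 4.98 times NOTCH2 in REH, while NOTCH2 was 1.83 times NOTCH1 in 697. The NOTCH1 to NOTCH2 ratio was therefore 9.11 times larger in REH than in 697 (exact conditional interval 8.50 to 9.76).

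NOTCH3 (chromosome 19, 15159038 to 15200995), a receptor best known from vascular smooth muscle and also active in T-cell precursors, had 7 reads in REH and 868 in 697. These are 0.139 CPM and 23.5 CPM, and the log2 ratio was -7.30 with an interval of -8.72 to -6.35. NOTCH3 was compared only because of its reads in 697, since its REH count was below the minimum of 10. The endothelial receptor NOTCH4 (chromosome 6, 32194843 to 32224067) was the least abundant receptor per kb in 697 and had 100 reads or 1.99 CPM in REH against 30 reads or 0.812 CPM in 697 (ratio on the log2 scale 1.28, interval 0.69 to 1.93). One end of NOTCH4 shares 681 bp with GPSM3, which had 2515 and 1899 reads, so its small counts lie beside a far more abundant gene.

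As shares of the summed receptor level per kb of exon, NOTCH1 made up 82.3%, NOTCH2 16.5%, NOTCH4 1.12% and NOTCH3 0.0809% in REH. In 697 the shares were 53.0% for NOTCH2, 29.0% for NOTCH1, 17.5% for NOTCH3 and 0.582% for NOTCH4. As plain shares of receptor reads, NOTCH1 took 78.1% of 12132 reads in REH (95% Wilson interval 77.4% to 78.9%) and 25.6% of 7507 reads in 697 (24.6% to 26.6%). The 4 receptors together differed far less than their parts, at 241 CPM in REH and 203 CPM in 697 (ratio on the log2 scale 0.25, interval 0.21 to 0.29).

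**Figure D1:**
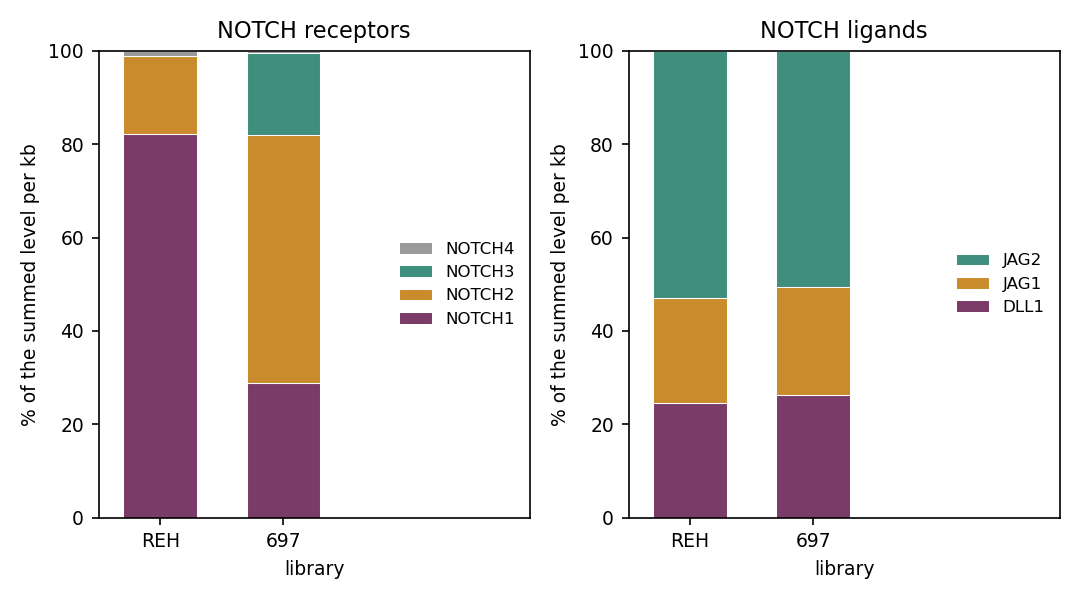
Stacked bars give each gene's percent of the summed level per kb of exon, for the 4 NOTCH receptors (left) and the 3 ligands (right), in the REH and 697 libraries. NOTCH1 fills 82.3% of the receptor bar in REH and 29.0% in 697, whereas the ligand bars are divided almost alike.

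These 3 ligands were counted at low levels. JAG2 (chromosome 14, 105140982 to 105168824), a Jagged-type ligand, led the 3 in both lines, also per kb of exon, with 601 reads or 12.0 CPM in REH and 228 reads or 6.17 CPM in 697 (ratio on the log2 scale 0.95, interval 0.73 to 1.18). JAG1 (chromosome 20, 10637684 to 10673999), the other Jagged ligand, had 373 reads or 7.42 CPM and 151 reads or 4.09 CPM (ratio on the log2 scale 0.86, interval 0.58 to 1.14). DLL1 (chromosome 6, 170282206 to 170306565), a Delta-type ligand, had 167 reads or 3.32 CPM and 71 reads or 1.92 CPM (ratio on the log2 scale 0.78, interval 0.38 to 1.21). Each of the 3 ratios was above 0, and their counting intervals overlapped one another. DLL1 overlaps FAM120B, which runs on the opposite strand, over 15863 bp, and reads in shared exons would have been left out as ambiguous.

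The mix of these 3 ligands was alike in both lines. JAG2 made up 52.8% of the summed ligand level per kb in REH and 50.6% in 697, JAG1 22.6% and 23.0%, and DLL1 24.6% and 26.4%. The ratio of JAG2 to JAG1 reads in REH was 1.07 times that in 697, with an exact conditional interval of 0.83 to 1.37 that includes 1. Summed over the 3 ligands, 22.7 CPM were found in REH and 12.2 CPM in 697 (ratio on the log2 scale 0.90, interval 0.74 to 1.06). DLL3 and DLL4, described below, are not part of this mix, and their levels were not alike. Per kb of exon, DLL3 had 2.36 CPM in REH and 5.68 CPM in 697, above JAG2 in both lines. DLL4 had 0.774 CPM per kb in REH and 0.211 in 697.

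Among the targets, DTX1 (chromosome 12, 113056730 to 113098028), a Deltex ubiquitin ligase that is induced by NOTCH and acts on the receptors in turn, had 11259 reads or 224 CPM in REH and 2709 reads or 73.3 CPM in 697. Its level was 3.05-fold higher in REH (ratio on the log2 scale 1.61, interval 1.55 to 1.67). The ratio of DTX1 to NOTCH1 reads in REH was 0.841 times that in 697 (interval 0.788 to 0.898). For DTX1 to NOTCH2 the factor was 7.66 (7.18 to 8.17). Both factors restate the log2 ratios of the 3 genes, and a link of DTX1 to either receptor was not tested.

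HES1 (chromosome 3, 194136148 to 194138732), a basic helix-loop-helix repressor and a classical NOTCH target in many tissues, had 0 reads in REH and 2 in 697. Both counts lie within the 3 reads that a count of 0 allows, so no fold is given and a difference was not detectable at this depth. HES1 overlaps no other gene in GENCODE 44. Counts this low were common, since 23.8% of 19208 protein-coding genes had 2 reads or fewer in both libraries.

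The promoter of HES1 is shown because it is a textbook site of NOTCH control, through RBPJ, of a gene that was all but uncounted in these lines. The RBPJ core TGGGAA was searched on both strands in RefSeq windows of 300 bases, from 250 before to 50 after the gene start (GRCh38.p14), and is in capitals in the 250 bases before the HES1 start (chr3:194135898-194136147, plus strand). The matches begin 84 and 70 bases before the start. Only this exact core was searched, so sites with other letters are not marked, and the marked stretches need not be the sites in use.

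HES1: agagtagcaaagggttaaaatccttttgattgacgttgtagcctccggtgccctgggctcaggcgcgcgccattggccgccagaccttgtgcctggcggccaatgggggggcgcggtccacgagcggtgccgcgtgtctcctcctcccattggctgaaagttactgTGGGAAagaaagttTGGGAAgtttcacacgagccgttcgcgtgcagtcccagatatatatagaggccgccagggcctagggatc

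Its relatives HES4 and HES5, which had 0 reads in both libraries, hold the same core at a like distance and are shown for comparison from 120 to 31 bases before the start, HES4 at chr1:1000128-1000217 and HES5 at chr1:2530294-2530383, both on the minus strand.

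HES4: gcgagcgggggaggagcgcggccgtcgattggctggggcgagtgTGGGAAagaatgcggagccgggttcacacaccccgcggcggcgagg

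HES5: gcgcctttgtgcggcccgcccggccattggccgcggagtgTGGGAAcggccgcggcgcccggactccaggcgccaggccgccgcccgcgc

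A RefSeq promoter window was found for 7 of the 10 genes (not for DLL1, HEY1 and DTX1), and HES1 was the 1 of these 7 with a match. Of all 35116 windows, 24.0% held at least 1 match and 3.80% held 2 or more. Among 13 further NOTCH targets with a window, 3 (23.1%) held 2 or more matches, namely HES5, HEY2 and HEYL. The other match of HES5 begins 224 bases before its start, outside the stretch shown. In all, 5 of the 13 held a match, namely HES4, HES5, HEY2, HEYL and FCER2. Their reads ranged from 0 in both lines for HES4 and HES5 to 253 in REH for HEYL and 228 in 697 for HEY2, so genes with and without reads were among them. A match is a description of the letters and not a measured binding site.

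HEY1 (chromosome 8, 79762371 to 79767857), a repressor of the same helix-loop-helix superfamily that follows NOTCH activity in vessels and heart, had 2 reads in REH and 0 in 697. Neither count exceeded the floor of 3 reads, and no fold is given for it.

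Ordered by level in CPM per kb of exon, the genes in REH ran from DTX1 (51.3) over NOTCH1 (15.1), NOTCH2 (3.02), JAG2 (1.87), DLL1 (0.870), JAG1 (0.798) and NOTCH4 (0.204) to NOTCH3 (0.0148). In 697 the order was DTX1 (16.8), NOTCH2 (7.58), NOTCH1 (4.14), NOTCH3 (2.50), JAG2 (0.965), DLL1 (0.503), JAG1 (0.440) and NOTCH4 (0.0833). DLL1 and JAG1 did not differ beyond their Wilson intervals in either line, and their order was turned when the longest transcript was used as length (1.25 for JAG1 and 0.879 for DLL1 in REH). Set against protein-coding genes with at least 10 reads, DTX1 lay above 96.1% of them in REH and 77.6% in 697. NOTCH1 lay above 78.0% and 39.6%, and NOTCH2 above 36.8% and 55.6%. NOTCH3 lay above 29.8% of these genes in 697, and DLL1, JAG1 and JAG2 lay above at most 29.0% in either line.

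**Figure D2:**
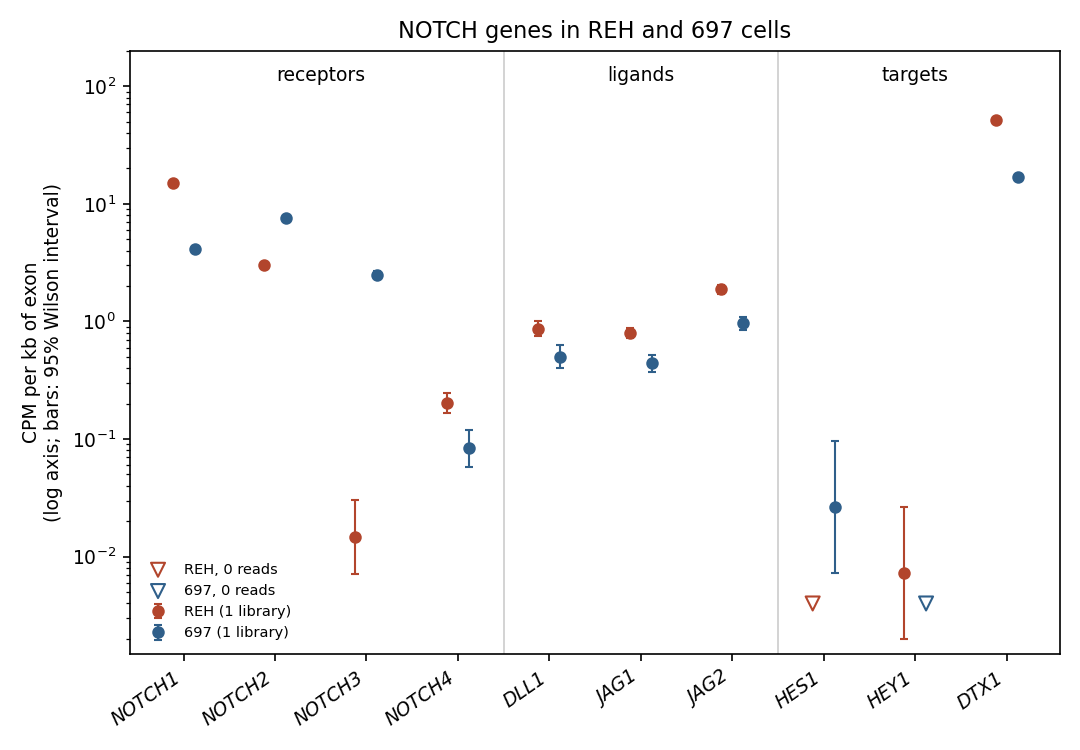
Points give the level of each gene in CPM per kb of exon on a log axis, for the REH and 697 libraries, with 95% Wilson intervals as bars and open triangles, drawn at an arbitrary height, for 0 reads. NOTCH1 and DTX1 are higher in REH, NOTCH2 and NOTCH3 are higher in 697, and HES1 and HEY1 lie at the bottom in both lines.

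The threshold for calling a gene higher in either line was set to 2 on the log2 scale, a 4-fold difference. Among the 8 NOTCH genes compared, 0 were called higher in REH, against 12.5% of all 19145 genes compared. NOTCH3 was the 1 called higher in 697, against 8.15% of all genes, and in either direction 20.7% of all genes passed. At this threshold, the share of NOTCH genes that passed in either direction, 1 of 8, was thus not above that of genes in general. At a log2 ratio of 1 it was above it, as given in the closing section. The ratios of the NOTCH genes were above 0 for 6 and below 0 for 2 (NOTCH2 and NOTCH3), and all 8 counting intervals excluded 0. Over all 19145 genes, 9974 ratios were above 0 and 14982 intervals excluded 0, so an interval of this kind excluded 0 for most genes at this depth. The median log2 ratio was 0.90, beside 0.05 over all genes, and the median of the absolute ratios was 1.30 beside 0.74. For the genes compared, the share of strand-assigned reads on the strand of the gene ran from 47.3% for JAG2 to 57.1% for NOTCH3, both in REH, the latter over 7 reads, so these counts cannot separate a NOTCH transcript from one on the opposite strand.

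The remaining pathway was examined with a list of 61 genes, of which 56 were compared. DLK1, DTX3, HES4, HES5 and CR2 had 0 reads in both libraries. For DTX3 this may not be an absence, since its neighbour PIP4K2C, a lipid kinase of most cell types, was also listed at 0. The same threshold was passed by 5 genes higher in REH (8.93%) and 5 higher in 697 (8.93%), near the shares over all genes. Of those higher in REH, RBPJL, TLE3, HEYL and FCER2 had counts below the read minimum in 697. HES2, higher in 697, was below it in REH. These genes were compared only because of their reads in the higher line, so a call in the other direction was not possible. The same minimum applied to all genes. Over the 56 pathway genes compared, the median log2 ratio was 0.01.

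Of 3 further ligands compared, none passed the threshold, beside 20.7% of all genes in either direction, a share that 3 genes cannot be set against. The median size of their log2 ratios was 1.35, beside 0.74 over all genes. DLL3, an inhibitory Delta-like protein that acts within the cell, was the most abundant of them per kb in both lines, with 310 reads in REH and 549 in 697 (ratio on the log2 scale -1.27, interval -1.47 to -1.07). DLL4, the Delta ligand of thymus and endothelium, had 185 and 37 reads (ratio on the log2 scale 1.86, interval 1.36 to 2.43). DLK2 had 168 and 48 reads (ratio on the log2 scale 1.35, interval 0.89 to 1.86).

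For the genes that process the receptors, the median size of the log2 ratio was 0.31 (cleavage) and 0.43 (glycosylation). Over all genes it was 0.74. None of the 9 cleavage genes passed the threshold, beside 20.7% of all genes in either direction, so few were to be found in lists this short. Of the 9 counting intervals, 6 excluded 0. The lowest log2 ratio was -1.16 for FURIN, the convertase that cuts the receptor precursor, and the protease ADAM10 was at -0.77 (interval -0.81 to -0.72). APH1A, a subunit of gamma-secretase, was the most abundant of them per kb in both lines, with 7317 reads in REH and 4344 in 697. None of the 5 glycosylation genes passed either, with log2 ratios from -0.87 for LFNG to 0.55 for RFNG and 4 intervals that excluded 0. Among these MFNG, a Fringe enzyme that modifies receptor sugars, was highest per kb, and it had 61.5 CPM in REH and 60.1 CPM in 697 (ratio on the log2 scale 0.03, interval -0.05 to 0.11).

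In the nuclear complex, RBPJ itself was counted in both lines, with 6853 reads or 136 CPM in REH and 6113 reads or 165 CPM in 697 (ratio on the log2 scale -0.28, interval -0.33 to -0.23). SNW1, a splicing factor and RBPJ partner, was the most abundant member per kb of exon in both lines, though in REH the coactivator CREBBP came first with the longest transcript as length (55.4 CPM per kb against 51.7 for SNW1). The coactivator MAML3 was higher in 697, with 226 reads in REH and 1441 in 697 (ratio on the log2 scale -3.11, interval -3.33 to -2.91), whereas MAML1 had 5903 and 3578 reads (log2 ratio 0.28) and MAML2 925 and 1213 (log2 ratio -0.84). The RBPJ paralog RBPJL was the member higher in REH, but with 36 and 3 reads its ratio was loose (ratio on the log2 scale 2.94, interval 1.48 to 5.48). Of the 8 genes, 1 (12.5%) was thus higher in each line, beside 12.5% (REH) and 8.15% (697) of all genes.

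The 10 corepressors included the most uneven gene of the pathway. TLE3, a Groucho-type corepressor that HES proteins recruit, had 3639 reads or 72.4 CPM in REH and 1 read or 0.0271 CPM in 697 (ratio on the log2 scale 10.80, interval 8.91 to 16.69). Its paralogs TLE1 and TLE4 were counted in both lines. TLE1 had 5039 and 3626 reads (ratio on the log2 scale 0.03, interval -0.03 to 0.09), and TLE4 had 4294 and 8784 (ratio on the log2 scale -1.48, interval -1.53 to -1.42). TLE5, a short family member, was the most abundant corepressor per kb in both lines, with 11734 and 11728 reads.

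Of the 10 genes of receptor and ligand turnover that were compared, 1 (10%) was higher in each line. Over all genes, the shares were 12.5% for REH and 8.15% for 697. MIB1, the ubiquitin ligase that lets ligands be internalized and so become active, had 39930 reads or 794 CPM in REH and 5707 reads or 154 CPM in 697 (ratio on the log2 scale 2.36, interval 2.32 to 2.403). It was the most abundant gene of the group per kb in REH. FBXW7, the F-box protein that marks the cleaved receptor for degradation, took that place in 697, with 2599 reads or 51.7 CPM in REH and 12566 reads or 340 CPM in 697 (ratio on the log2 scale -2.72, interval -2.78 to -2.66).

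Among the further targets, 11 of 14 genes were compared. Of these, 2 (18.2%) were higher in REH and 3 (27.3%) higher in 697, beside 12.5% and 8.15% of all genes. With 11 genes compared, these shares rest on few genes. The helix-loop-helix genes were divided between the lines. HEYL, a relative of HEY1, had 253 reads in REH and 1 in 697 (ratio on the log2 scale 6.96, interval 5.05 to 12.85). HEY2, another relative, had 24 reads in REH and 228 in 697 (ratio on the log2 scale -3.67, interval -4.36 to -3.08). HES7, an oscillator gene of somite formation, had 36 and 165 reads (ratio on the log2 scale -2.63, interval -3.20 to -2.11). HES2 had 0 reads in REH and 54 in 697. With 3 reads taken as the floor of the REH library, its level was 24.5-fold higher in 697, a value without the counting error of the 54 reads. Its counting interval on the log2 scale had no lower limit and an upper limit of -4.27. HES6, a relative that did not pass the threshold, was the most abundant HES or HEY gene per kb in both lines, with 275 reads or 5.47 CPM in REH and 428 reads or 11.6 CPM in 697 (ratio on the log2 scale -1.08, interval -1.31 to -0.86).

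FCER2, which encodes CD23 and is a known RBPJ-dependent gene of B cells, was the other target higher in REH, with 110 reads against 5 (ratio on the log2 scale 3.88, interval 2.75 to 5.67). NRARP, a feedback inhibitor induced by NOTCH, had 203 reads or 4.04 CPM in REH and 166 reads or 4.49 CPM in 697, and its counting interval included 0 (ratio on the log2 scale -0.15, interval -0.46 to 0.15). IL7R, a cytokine receptor and T-lineage NOTCH target, was the most abundant of the targets per kb of exon in both lines (24832 and 27282 reads), though in 697 MYC came first with the longest transcript as length (194 CPM per kb against 161 for IL7R). MYC, a NOTCH1 target in T-cell leukemia, had 12286 reads in REH and 26677 in 697 (ratio on the log2 scale -1.56, interval -1.59 to -1.53), the reverse of the order of NOTCH1.

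**Figure D3:**
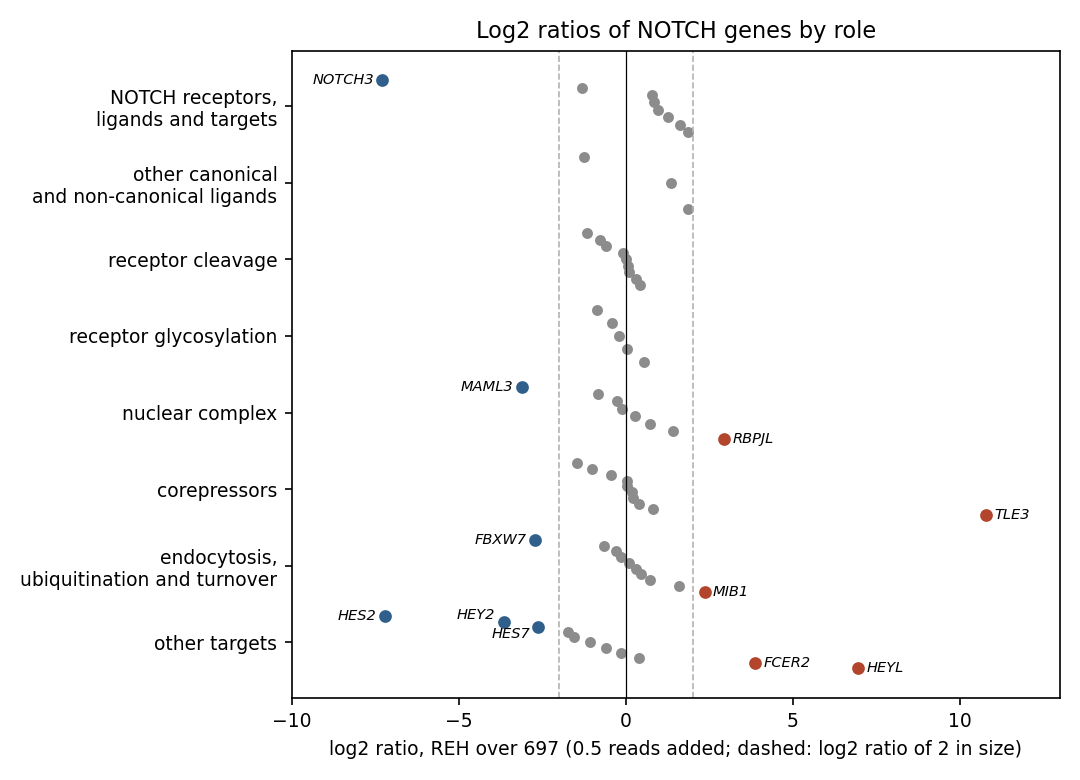
Each point is the log2 ratio of REH over 697 for 1 gene with at least 10 reads in a library, grouped by role, with dashed lines at a ratio of 2 in size and names on the genes past it. The rows of receptor cleavage and glycosylation lie between -1.16 and 0.55, while NOTCH3, HES2 and TLE3 lie far from 0.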

How the data were processed

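Raw read counts per gene were deposited by the authors as STAR gene counts, 1 file per line, neither normalized nor filtered. The methods name hg38 and poly(A) purification, whereas the submitters' processing notes name hg19 and the labels name ribodepletion and a stranded protocol. The annotation used for counting is not given in the sources used here. Strand-pooled counts (the first count column) were taken, since 50.1% (REH) and 50.2% (697) of strand-assigned gene reads lay on the strand of the gene. Summary rows (unmapped, multimapping, outside genes, ambiguous) made up 29.3% and 30.3% of reads and were left out.

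Symbols, positions and exon lengths (union of exons) came from GENCODE 44 (GRCh38) by gene ID; 51996 IDs matched and 5777 did not. TMM factors (edgeR 4.0.16, R 4.3.3) were 1.11 for REH and 0.899 for 697. Log2 ratios used 0.5 added reads, and genes needed 10 reads in a library. The study used DESeq2, which requires replicates, so no test was run. Scripts ran in Python 3.11.15 with scipy 1.17.1 and were tested on simulated data. Alternatives were DESeq2 1.42.0 size factors, unscaled totals, other factors, minimums, added reads, threshold, strand columns and transcript length. The genes examined and the pathway and marker lists were chosen with earlier results of these data known. Pathway genes were named if past the threshold or most abundant per kb in their list. The others named were chosen after their values were seen, as were the neighbouring genes in the closing section, taken by position. TRAC and PECAM1 had no matching ID.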

Additional observations from a re-analysis of the deposited data

How the results depend on the processing

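Without TMM factors, the median log2 ratio of all genes shifted from 0.05 to 0.36 and that of the NOTCH genes from 0.90 to 1.21, and 1 NOTCH gene (NOTCH1) was counted as higher in REH, as were 2795 of all genes, with 1318 higher in 697. With a minimum of 1 read, 2 NOTCH genes were counted as higher in 697, the second being HES1 with 2 reads, and 4410 of all genes were. Raising the minimum to 50 reads gave 1477 genes for REH and 1036 for 697. The number of genes compared changes with the minimum, so these counts are not shares of the same total. At a log2 ratio of 1, 3 of the 8 NOTCH genes were higher in REH (NOTCH1, NOTCH4 and DTX1) and 2 in 697 (NOTCH2 and NOTCH3). The counts were 9 and 12 for the 56 pathway genes and 4293 and 3336 for all 19145 genes. At this lower threshold the share of NOTCH genes that passed was above that of all genes in each direction, over 8 genes only.

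The ratios of the 8 NOTCH genes kept their sign in 64 of 64 recomputed values, and 58 stayed within the original counting interval. Of the 6 outside it, 5 came from totals without TMM factors. Using the longest transcript raised the levels per kb, and it turned the order of DLL1 and JAG1 in both lines, of SNW1 and CREBBP in REH and of IL7R and MYC in 697. No paired analysis was possible because there is a single library for either line, and leaving one out was likewise not possible. Depth limits HES1 and HEY1, whose counts do not exceed the 3 reads that a count of 0 allows.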

Other observations

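The genes beside the NOTCH loci were looked at by position, taking the 3 nearest protein-coding genes with at least 10 reads on each side. Beside NOTCH3, none of 6 neighbours passed a log2 ratio of 2 in size, and their ratios ran from -0.43 to 0.60. Beside DTX1 none of 6 passed either (-0.99 to 1.995), RASAL1, which lies 791 bp away, having 3451 reads in REH and 1133 in 697 (log2 ratio 1.16). Beside NOTCH1, 1 of 6 passed. This was EGFL7, an endothelial secreted protein described as a NOTCH modulator, with 5477 reads or 109 CPM in REH and 174 reads or 4.71 CPM in 697 (log2 ratio 4.53, interval 4.31 to 4.76), while the other 5 lay between -0.27 and 0.39. Beside JAG1, 4 of 6 passed, all with the higher level in 697. These were LAMP5, BTBD3, SPTLC3 and ISM1, which lie 1107160 to 2547275 bp from JAG1. SLX4IP at 855 bp and MKKS at 203462 bp did not pass, nor did JAG1 itself (log2 ratio 0.86). Beside HEY1, 3 of 6 were higher in 697, and beside NOTCH4, 2 of 6 were higher in REH. Beside NOTCH2 and HES1, 1 of 6 was higher in REH, and beside DLL1 and JAG2 none passed. Over all protein-coding genes compared, 10.9% were higher in REH and 7.17% in 697.

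The lncRNA NALT1 (chromosome 9, 136546212 to 136549893), which adjoins the start of NOTCH1 and was described with it in T-cell leukemia, had 40 reads in REH and 42 in 697. Its log2 ratio was -0.51 with a counting interval of -1.18 to 0.15, which includes 0, beside 1.86 for NOTCH1.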
